A study of Mus musculus with 12 samples.

Results

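The 10 genes Inafm2, Itpka, Ltk, Jmjd7, Pla2g4b, Ganc, Ckmt1, Slc28a2, Gatm and Sqrdl lie in 1 stretch of mouse chromosome 2, outward of Mertk, and are 10 of the 479 genes in a table of thymus RNA. They were chosen by name, from measured values of these same mice: each differed between genotypes, and their levels varied among the mutant animals. The difference between genotypes and the spread among mutants are therefore only described below. Statistical calls between genotypes are given as part of this description and are no evidence. RNA of the whole thymus was sequenced from 12 mice at 1 month of age, 6 wild-type (WT) and 6 Axl-/-Mertk-/- (labelled AMDKO), with 3 males and 3 females of each genotype. The mutants are homozygous for germline mutations of both receptor genes and so carry them in all tissues. The lines had been backcrossed onto C57BL/6, and WT and mutant lines were housed apart, so genotype and housing cannot be told apart. The WT mice are called WT_210, WT_211 and WT_212 (males) and WT_213, WT_214 and WT_215 (females), and the mutant mice are called AMDKO_202, AMDKO_203 and AMDKO_264 (males) and AMDKO_219, AMDKO_220 and AMDKO_231 (females).

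Axl and Mer, the product of Mertk, are receptor tyrosine kinases of the TAM family, with which macrophages of the thymus recognise and engulf dying thymocytes. Mertk lies on chromosome 2, and the third TAM receptor gene, Tyro3, lies on the same chromosome within the stretch examined here. When a mutated gene is passed on in a breeding line, the DNA on both sides of it is passed on with it until recombination separates them. In a comparison of WT with mutant lines, an effect of the mutations and an effect of DNA linked to Mertk on the genes near it cannot be told apart, and the DNA of these mice was not analysed here.

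The 10 genes have various functions, and Gatm and Ckmt1 both act on creatine. Ltk encodes a receptor tyrosine kinase related to Alk, and Itpka encodes a kinase that phosphorylates inositol trisphosphate, a second messenger of calcium release. Jmjd7 encodes a lysyl hydroxylase, and its neighbour Pla2g4b a cytosolic phospholipase A2. Gatm catalyses the first step of creatine synthesis, and Ckmt1 is a mitochondrial creatine kinase. Slc28a2 takes up purine nucleosides with sodium, Sqrdl oxidises hydrogen sulfide in mitochondria, and Ganc is a neutral alpha-glucosidase. Inafm2 encodes a small membrane protein of little-known function.

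On the mm10 assembly and in the GENCODE vM21 annotation, the genes run from Inafm2 (chr2:118745758-118748810) to Sqrdl, annotated as Sqor (chr2:122765237-122809569). The distance from Mertk is 9.95 Mb for Inafm2, 8.95 Mb for Itpka, 8.94 Mb for Ltk, 8.67 Mb for Jmjd7, 8.66 Mb for Pla2g4b and 8.24 Mb for Ganc. It is 7.34 Mb for Ckmt1, 6.24 Mb for Slc28a2, 6.09 Mb for Gatm and 5.89 Mb for Sqrdl. Ltk and Gatm are read from the minus strand, the others from the plus strand. The stretch spans 4.064 Mb and holds 101 annotated protein-coding genes, of which 19 are in the table.

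The proximal promoters of the genes differ in base composition, as shown by the 150 bases before the RefSeq start of Inafm2 and Slc28a2, which rose and fell in the mutants and whose windows hold no annotated exon. They are given 5′ to 3′ from GRCm38.p6, on the plus strand, at chr2:118745608-118745757 and chr2:122426285-122426434. Capitals mark matches on either strand to the motifs GGGCGG and CCAAT.
Inafm2: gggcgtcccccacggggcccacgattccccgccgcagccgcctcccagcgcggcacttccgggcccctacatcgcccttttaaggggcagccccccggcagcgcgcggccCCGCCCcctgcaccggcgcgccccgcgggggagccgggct
Slc28a2: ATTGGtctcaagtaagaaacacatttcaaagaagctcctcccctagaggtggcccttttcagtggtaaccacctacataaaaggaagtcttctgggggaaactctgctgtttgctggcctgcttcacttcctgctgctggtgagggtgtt
The Inafm2 window holds 21 CG dinucleotides and the Slc28a2 window 0, against a median of 4 over 32851 RefSeq windows of this length. GGGCGG occurs in 28.6% and CCAAT in 24.5% of these windows. Promoter sequences were matched for 9 of the 10 genes, and these reference sequences are not those of the mice.

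The targeted gene Axl was measured at 11.9 to 16.9 FPKM (the fragments on a gene relative to its exon length and to the size of the library) in WT mice and at 1.92 to 2.45 FPKM in the mutants, so the libraries matched their labels. Mertk was not analysed here. Library depth, estimated from the steps in the low values, was 18810000 to 24460000 reads in WT and 19300000 to 23780000 in mutant mice. The table holds genes that differ between these mice, since 455 of the 479 had an adjusted p-value under 0.05 for genotype with limma. None of the listed markers of thymocytes (0 of 11) or thymic epithelium (0 of 9) is in the table, so the labelled tissue could not be checked with them. Of 13 macrophage markers, 7 are in the table, with a summed level of 137.2 to 212.8 FPKM in WT mice and 75.4 to 118.3 FPKM in the mutants (75.7 in AMDKO_219 and 102.3 in AMDKO_231). Their part in the levels described below was not tested, and in whole tissue fewer cells of a type and less RNA per cell cannot be told apart.

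Of the 10 genes, 5 were higher in the mutants (Inafm2, Itpka, Ltk, Ckmt1 and Gatm) and 5 were lower (Jmjd7, Pla2g4b, Ganc, Slc28a2 and Sqrdl). With limma on log2(FPKM + 5) and thresholds of 0.05 for the adjusted p-value and 0.5 for the log2 fold change, 3 were called higher, against a background of 2.92% of the table, and 2 lower, against 3.13%. The values of the 6 mutants and the 6 WT mice did not overlap for 8 of the 10, against 39.0% of the table. Of the 5 called, 3 were called without AMDKO_231, against 29 genes of the table. With males only 0 of the 10 were called, against 24 genes of the table, and with females only 6, against 26. In the males-only limma fit, 9 of the 10 passed the threshold on the adjusted p-value by itself. In that fit 274 genes of the table had an unadjusted p-value under 0.05. The count over the table on the adjusted p-value is not given here. With a constant of 0.1 in the logarithm all 10 were called, against 385 genes of the table. Since these differences chose the genes, nothing is read from the counts. The median log2 fold change was -0.06 over the 10 genes and -0.05 over the table.

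**Figure D1:**
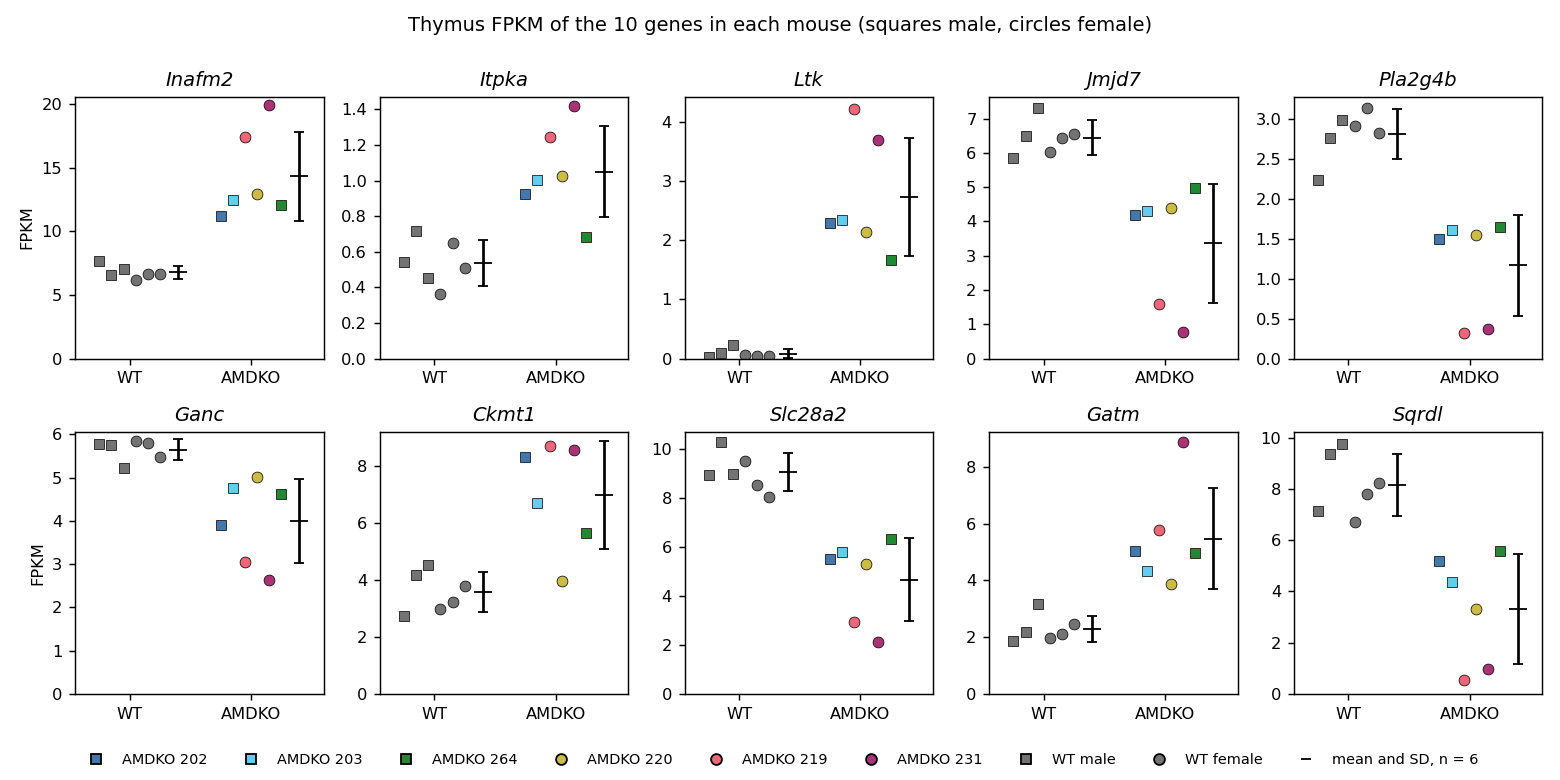
FPKM of the 10 genes in thymus for each of 6 WT (grey) and 6 AMDKO mice (coloured by mouse, squares male, circles female), with the mean and SD of each genotype at its right. In every panel AMDKO_219 and AMDKO_231 lie farthest from the WT mice, as for Sqrdl at 0.536 and 0.962 FPKM.

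The receptor kinase gene Ltk was nearly silent in WT thymus and measurable in every mutant. WT levels ran from 0.018 to 0.230 FPKM (median 0.0535), which corresponds to about 1 to 17 reads per mouse on the longest RefSeq transcript. Mutant levels were 2.29, 2.35, 1.66 and 2.14 FPKM in AMDKO_202, AMDKO_203, AMDKO_264 and AMDKO_220, and 4.22 and 3.70 FPKM in AMDKO_219 and AMDKO_231. All 6 mutants lay above the highest WT mouse, and AMDKO_219 and AMDKO_231 stood above the other 4. On means, 2.73 ± 0.998 FPKM (SD, n = 6) compares with 0.0817 ± 0.0773 FPKM in WT, a log2 fold change of 0.59 (SE 0.0660) on the log2(FPKM + 5) scale, which understates the change of low genes.

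Itpka, which starts within 0.01 Mb of Ltk, was low in both genotypes. It ran from 0.361 to 0.715 FPKM in WT (median 0.526), or about 15 to 30 reads. In the mutants it was 0.926, 1.00, 0.681 and 1.03 FPKM in AMDKO_202, AMDKO_203, AMDKO_264 and AMDKO_220, 1.25 FPKM in AMDKO_219 and 1.42 FPKM in AMDKO_231. AMDKO_264 lay within the WT range and the other 5 mutants above it. The coefficient of variation (CV, SD over mean) of Itpka was 24.4% in the mutants and 24.0% in WT, and counting alone would give about 15.6% and 21.3%, the largest counting share in the mutants among the 10 genes.

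Inafm2 rose in all mutants and had the highest levels of the 5 genes that were higher. WT mice held 6.18 to 7.67 FPKM (median 6.63), and AMDKO_202, AMDKO_203, AMDKO_264 and AMDKO_220 held 11.2, 12.4, 12.1 and 12.9 FPKM. AMDKO_219 and AMDKO_231 reached 17.4 and 19.9 FPKM, apart from the other mutants by 51.7% of the mutant range. The CV was 24.4% in the mutants against 7.58% in WT, while counting would add about 3.24%.

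Both creatine genes were higher in the mutants, with different spreads. Gatm ran from 1.87 to 3.16 FPKM in WT (median 2.14) and was 5.03, 4.33, 4.98 and 3.89 FPKM in AMDKO_202, AMDKO_203, AMDKO_264 and AMDKO_220, 5.77 FPKM in AMDKO_219 and 8.88 FPKM in AMDKO_231. All mutants lay above the WT mice, but here the widest gap, 62.3% of the mutant range, separated AMDKO_231 alone, with AMDKO_219 near the rest. Ckmt1 ran from 2.73 to 4.53 FPKM in WT (median 3.51) and was 8.33, 6.73, 5.65 and 3.97 FPKM in AMDKO_202, AMDKO_203, AMDKO_264 and AMDKO_220, 8.72 FPKM in AMDKO_219 and 8.57 FPKM in AMDKO_231. AMDKO_220 was within the WT range for Ckmt1 and AMDKO_202 was close to AMDKO_219 and AMDKO_231. The table holds 0 of the other 5 creatine genes listed.

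Jmjd7 and Pla2g4b, whose starts lie 0.00593 Mb apart on 1 strand, were both lower in the mutants. Jmjd7 held 5.87 to 7.32 FPKM in WT (median 6.47), 4.18, 4.32, 4.98 and 4.38 FPKM in AMDKO_202, AMDKO_203, AMDKO_264 and AMDKO_220, and 1.602 and 0.762 FPKM in AMDKO_219 and AMDKO_231. Pla2g4b held 2.24 to 3.15 FPKM in WT (median 2.87), 1.496, 1.61, 1.65 and 1.56 FPKM in the same 4 mutants, and 0.326 and 0.371 FPKM in AMDKO_219 and AMDKO_231. For both genes the mutants fell into a close group of 4 mice below the WT range and a pair far below it, with the widest gap taking 61.1% of the mutant range for Jmjd7 and 85.2% for Pla2g4b.

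The read-through gene Gm28042 covers both and shares 1307 of the 1960 exon bases of Jmjd7 and 3878 of the 5831 of Pla2g4b, so reads in them can be split between the 3 genes and their values are not independent. Gm28042 was 3.22 to 4.08 FPKM in WT, 2.20, 2.24, 2.43 and 2.323 FPKM in AMDKO_202, AMDKO_203, AMDKO_264 and AMDKO_220, and 0.629 and 0.487 FPKM in AMDKO_219 and AMDKO_231. It thus showed the same grouping of mice. Pla2g4b also shares 792 exon bases with Sptbn5 on the opposite strand, and whether reads were counted by strand is not given in the sources used here.

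Slc28a2, the nucleoside carrier, fell in all mutants. WT mice held 8.06 to 10.3 FPKM (median 8.96), AMDKO_202, AMDKO_203, AMDKO_264 and AMDKO_220 held 5.52, 5.80, 6.34 and 5.31 FPKM, and AMDKO_219 and AMDKO_231 held 2.92 and 2.13 FPKM. The groups did not overlap, and the pair again lay apart, by 56.8% of the mutant range. Gm14085, a close relative of Slc28a2 next to it, was 1.61 to 2.79 FPKM in WT and 0.846 and 0.731 FPKM in AMDKO_219 and AMDKO_231, with the other mutants at 1.30 to 1.99 FPKM. Near-identical reads of Slc28a2 and Gm14085 could have been assigned to either, so their separate values are uncertain.

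Sqrdl, the gene of the 10 nearest to Mertk, had the largest CV among the mutants of the 10. WT mice held 6.71 to 9.76 FPKM (median 8.02), AMDKO_202, AMDKO_203, AMDKO_264 and AMDKO_220 held 5.20, 4.36, 5.60 and 3.32 FPKM, and AMDKO_219 and AMDKO_231 held 0.536 and 0.962 FPKM. The CV was 64.6% in the mutants against 14.8% in WT, with about 8.51% from counting. AMDKO_219 had about 25 reads of this gene, so its very low level was still above the 3 reads that a count of 0 allows.

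Ganc was lower in the mutants by the smallest ratio of the 5, with a mutant mean at 70.7% of the WT mean. WT mice held 5.22 to 5.84 FPKM (median 5.76), AMDKO_202, AMDKO_203, AMDKO_264 and AMDKO_220 held 3.90, 4.75, 4.62 and 5.01 FPKM, and AMDKO_219 and AMDKO_231 held 3.05 and 2.63 FPKM. All mutants lay below the WT range, AMDKO_220 only just. Its WT mice varied little, with a CV of 4.31% against 24.4% in the mutants. Ganc shares 209 exon bases with Tmem87a on the opposite strand and 386 with Capn3 on its own strand, of 9096.

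Over the 10 genes and 6 mutants, 28 of 60 values lay above the WT range of the gene, 30 below it and 2 within it. AMDKO_219 and AMDKO_231 were the pair farthest from the WT mean for 10 of the 10 genes, both for the genes that were higher and for those that were lower. Over the table, this pair was the farthest for 8.35% of genes. For 7 of the 10 genes the widest gap among the mutants separated this pair from the other 4 mice, against 3.13% of the table, the exceptions being Itpka, Ckmt1 and Gatm. Because variation among the mutants helped to choose the genes, these shares describe the choice. Both mice are female, as is AMDKO_220.

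To compare genes of both directions, the shift of each mutant from the WT mean was taken as a percentage of the shift of the farthest mutant. The median shift over the 10 genes was 100% for AMDKO_231 and 87.3% for AMDKO_219. It was 48.3% for AMDKO_220, 47.6% for AMDKO_202, 47.6% for AMDKO_203 and 38.6% for AMDKO_264. The 4 less shifted mice lay close to each other for some genes, at 47.0 to 53.0% for Pla2g4b, 33.5 to 46.8% for Inafm2, 25.8 to 39.9% for Jmjd7, 39.2 to 54.1% for Slc28a2, 38.1 to 54.8% for Ltk and 24.3 to 41.6% for Gatm. They were more spread for the other genes, at 33.7 to 63.6% for Sqrdl, 21.2 to 57.8% for Ganc, 16.3 to 55.3% for Itpka and 7.55 to 92.4% for Ckmt1.

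**Figure D2:**
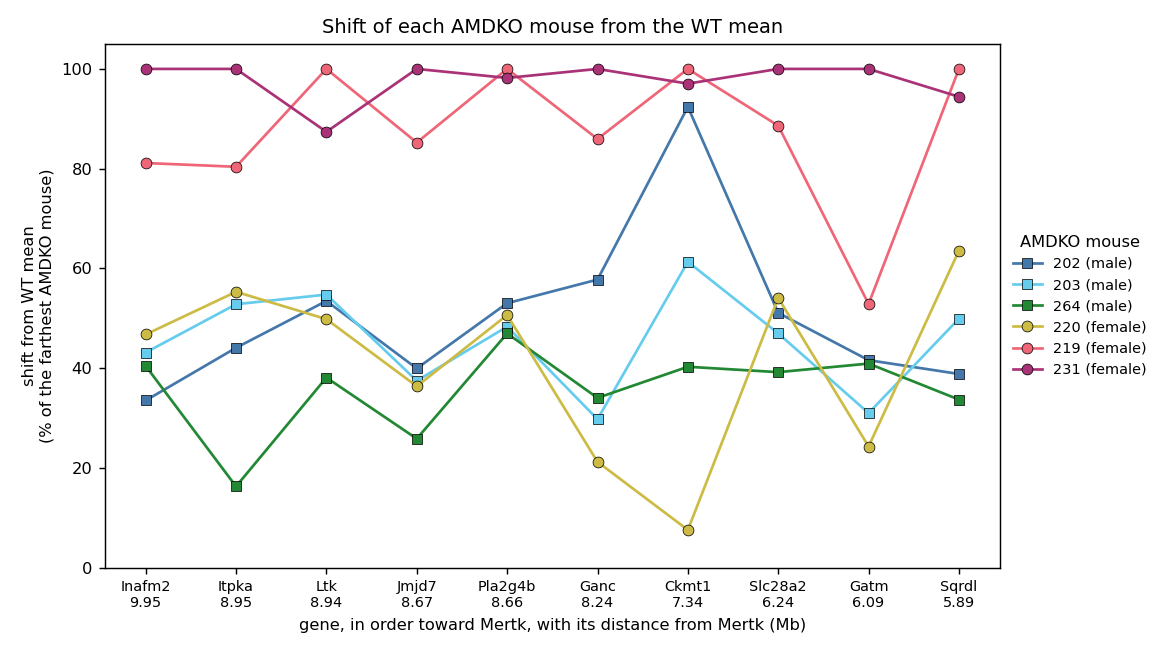
Shift of each AMDKO mouse from the WT mean, as a percentage of the farthest AMDKO mouse (vertical), for the 10 genes in order toward Mertk with their distance in Mb (horizontal). The lines of AMDKO_219 and AMDKO_231 run highest at every gene, while AMDKO_202, AMDKO_203, AMDKO_220 and AMDKO_264 have medians of 38.6 to 48.3%.

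The order of the mutants was compared between neighbouring genes over the 15 pairs of mutants. Because the same 2 mice were farthest at each of the 10 genes, 8 of the 15 pairs were ordered alike by that alone, and the total would be 11.5 if the other 7 agreed in 0.5 of the cases. Counted in this way, the next gene toward Mertk ordered 14 alike by shift for Inafm2 and Itpka, 13 for Jmjd7 and Pla2g4b, 13 for Ltk and Jmjd7, and 9 for Gatm and Sqrdl. Over all 45 pairs of the 10 genes, between 9 and 15 pairs of mice were ordered alike, with a median of 12, close to that value, so no shared order beyond the pair is read from these counts. The genes share libraries, so these counts are not independent of each other. The 2 genes of the table whose mutants were ordered most like each member came to 17 different genes. Of these, 5 are on chromosome 2 (Gm28042, Ganc, Gatm, Tyro3 and Gm14085), as are 61 of the 479 table genes (12.7%). Ganc and Gatm are among the 10 themselves, Gm28042 shares exon bases with Jmjd7, and reads of Gm14085 could belong to Slc28a2. The mutant values also helped to choose the 10 genes, so nothing is read from this share. The order of Slc28a2 was matched in 15 of 15 pairs by Gm14085 and, in reverse, by Tyro3, and that of Jmjd7 by Gm28042 and Tmem121. Ganc and Gatm mirrored each other in 15 of 15 pairs. With 6 mice, an order can be matched in full by genes elsewhere, as Pif1 on chromosome 9 matched Itpka in 15 of 15.

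The other 9 table genes of the stretch varied in the same mice in part. AMDKO_219 and AMDKO_231 were the farthest pair for 6 of the 9 (Oip5, Tyro3, Gm28042, Epb42, Strc and Gm14085), against 8.35% of the table. They stood apart from the rest for 3 (Tyro3, Gm28042 and Gm14085), against 3.13% of the table. Gm28042 shares exon bases with Jmjd7 and Pla2g4b, and reads of Gm14085 could belong to Slc28a2. The values of Gm28042 and Gm14085 are therefore not independent of the chosen genes, which leaves Tyro3 of the 3. Tyro3, the third TAM receptor gene, was 0.638 to 1.04 FPKM in WT and 1.96, 1.69, 1.34 and 1.97 FPKM in AMDKO_202, AMDKO_203, AMDKO_264 and AMDKO_220, and it reached 2.75 and 2.87 FPKM in AMDKO_219 and AMDKO_231. All mutants were above WT, and the pair was highest. Exd1 differed in this: it was 0.124 to 0.174 FPKM in the mutants against 0.027 to 0.097 FPKM in WT, with no mouse far from the others. Among the table genes nearest to each end, counted from Inafm2 toward Mertk, A430105I19Rik had a mean of 0.213 FPKM in WT and 0.352 FPKM in the mutants, with AMDKO_231 the least shifted, and Serinc4 was 0.102 to 0.394 FPKM in the mutants against 0.050 to 0.258 FPKM in WT. Oip5 had means of 5.89 and 9.44 FPKM, Epb42 of 0.201 and 0.096 FPKM and Strc of 0.0865 and 0.0247 FPKM in WT and mutants, and in these 3 the pair was farthest without a gap that set it apart.

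The next table gene toward Mertk after Sqrdl was Sema6d, 4.03 Mb from Mertk. Of the 13 table genes from there to 10 Mb past Mertk, AMDKO_219 and AMDKO_231 were the farthest pair for 1, Kcnip3, and stood apart for 0, while the genotypes did not overlap for 10. Sema6d was 1.51 to 2.22 FPKM in WT and 1.15 to 1.44 FPKM in the mutants, with AMDKO_219 and AMDKO_231 at 1.26 and 1.21 FPKM among the rest. The median CV over these 13 genes was 18.5% in the mutants and 19.3% in WT, against 34.6% and 12.9% over the 10 genes. Variation among the mutants helped to choose the 10 genes, so nothing is read from this contrast. Of genes picked after their values were seen, Prokr2 was 1.92 to 3.01 FPKM in WT and 0.010 to 0.074 FPKM in all 6 mutants, and Mall, 0.969 Mb from Mertk, was 0.432 to 0.846 FPKM in WT and 1.995 to 2.55 FPKM in the mutants. For Mall the 6 mutants formed 1 group, while Prokr2 was near 0 in all of them, so a grouping could not show. Fgf7, also picked after its values were seen, was uneven. It was 0.174 and 0.164 FPKM in AMDKO_203 and AMDKO_220 and 0.301 to 0.399 FPKM in the other mutants.

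**Figure D3:**
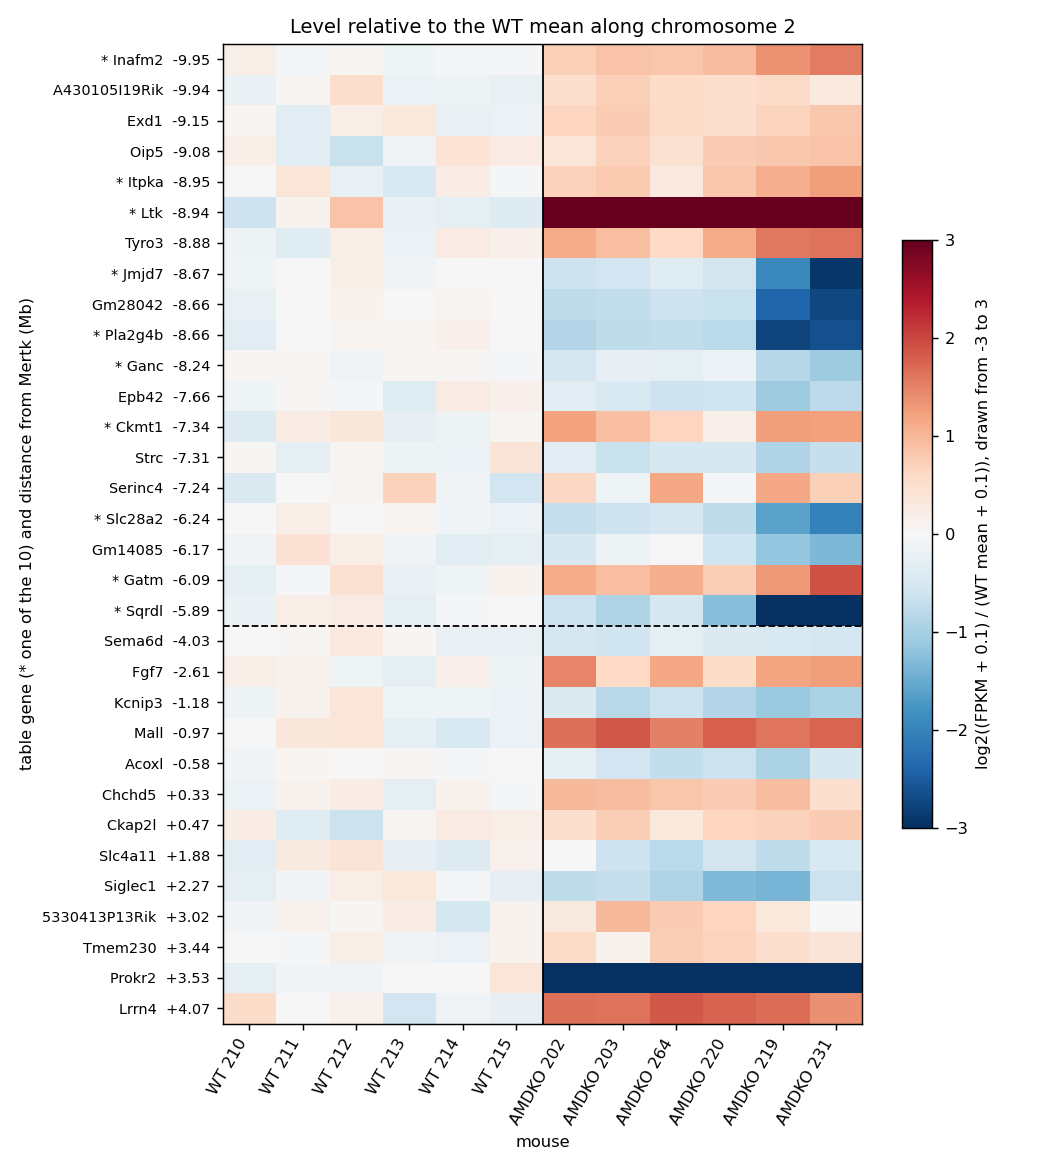
Colour gives log2((FPKM + 0.1)/(WT mean + 0.1)) of table genes on chromosome 2 (rows, with distance from Mertk in Mb, negative on the side of the 10 starred genes) in each mouse (columns). Above the dashed line, which follows Sqrdl, AMDKO_219 and AMDKO_231 are darkest for most starred genes, and below it the 6 AMDKO columns are of similar shade for Mall. Ltk and Prokr2 pass the limit of the colour scale in all 6 AMDKO columns, so their shades cannot show differences between these mice.

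On the other side of the stretch, the nearest table gene outward of Inafm2 was Fsip1, 10.4 Mb from Mertk, also picked after its values were seen. It was 0.231 to 0.476 FPKM in WT, 0.251, 0.279, 0.227 and 0.146 FPKM in AMDKO_202, AMDKO_203, AMDKO_264 and AMDKO_220, and 0.026 and 0.025 FPKM in AMDKO_219 and AMDKO_231. The pair lay lowest, AMDKO_220 and AMDKO_264 under the WT range and the other 2 within it. The next table gene outward, Muc15, 18.0 Mb from Mertk, was 0.097 to 0.364 FPKM in WT and 0.283 to 0.549 FPKM in the mutants with AMDKO_220 highest, and did not show the pair apart. Over all 22 table genes of chromosome 2 outward of the stretch, this pair was the farthest for 2, and over the 418 genes on other chromosomes or not placed for 21 (5.02%).

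**Figure D4:**
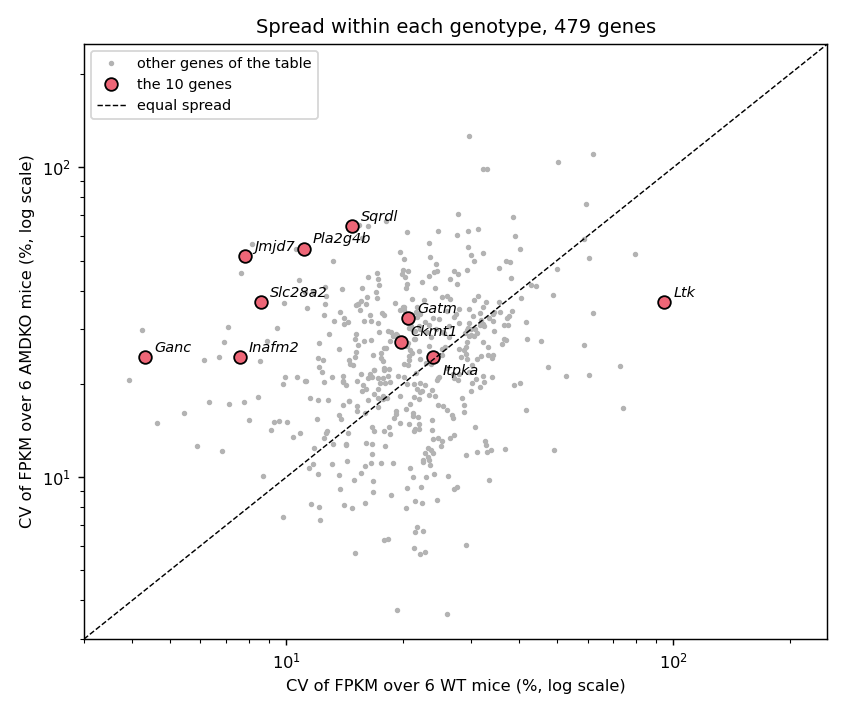
CV of FPKM over 6 AMDKO mice (vertical) against that over 6 WT mice (horizontal), both in percent on log axes, for 479 genes, with the 10 genes in red and a dashed line of equal spread. The CV was larger in the mutants for 9 of the 10 genes, Ltk being the exception at 36.6% against 94.6% in WT, where it had few reads. Variation among the mutants helped to choose the 10 genes.

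The CV within the mutants was a median of 3.74 times that within WT over the 10 genes, and 1.12 times over the table. Variation among the mutants helped to choose the 10 genes, so their larger ratio describes the choice. A CV is relative to the mean, which differs between the genotypes, so it also rises where the mean falls. The median ratio of CVs was 1.51 over the other 9 genes of the stretch and 0.986 over the 13 genes toward and past Mertk. The depths of AMDKO_219 and AMDKO_231, 23060000 and 23780000 reads, lay within the WT range.

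Sex was examined because the pair is female. Between sexes, 0 of the 10 genes and 0% of the table passed the same thresholds (limma, both genotypes together), while 69 genes of the table, among them Sqrdl and Slc28a2, had an unadjusted p-value under 0.05. The largest difference among the 10 was that of Sqrdl, with a female minus male difference of -0.38 (SE 0.123) on the log2(FPKM + 5) scale, adjusted p = 0.238 with limma. For a genotype difference that depends on sex, called by an adjusted p-value under 0.05 with no threshold of size, 0% of the table passed with limma, with 15 genes of the table and 4 of the 10 at an unadjusted p-value under 0.05. Without AMDKO_220, which leaves AMDKO_219 and AMDKO_231 as the only mutant females, 6 of the 10 passed on the adjusted p-value alone, of 7 in the table, with limma, and 3 of these 6 (Inafm2, Jmjd7 and Sqrdl) had an estimate beyond 0.5 in size. Sex and the difference of this pair from the other mutants then cannot be told apart, and the spread among mutants had chosen the genes.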

How the data were processed

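Total RNA from thymuses of 12 mice was made into stranded mRNA libraries from 500 ng and read for 50 bases. The authors processed reads with CASAVA 1.8.2 and FastQC, mapped them to mm10 with STAR 2.5.3a and normalized them over exons of the top isoform to FPKM with HOMER 4.10.4. The deposited table holds log2(FPKM + 5) values of 479 genes, and how these were selected and whether counting used strand is not given in the sources used here. Samples were grouped by genotype and sex from the labels, and no mouse was left out.

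FPKM were recovered by undoing the logarithm. Genotype and sex were fitted with limma 3.58.1 (R 4.3.3) on the deposited values, with sex as a covariate as in the study's methods and Benjamini-Hochberg adjustment over 479 genes. On simulated data, 200 of 200 changed genes were recovered and 1 unchanged gene was called. The sizes of the differences put in are not given here. Recovery of log2 fold changes as small as those of Itpka (0.13) and Ganc (-0.25), on the log2(FPKM + 5) scale, was not tested. The labels do not say whether mice were littermates, so p-values measure the spread between these animals. Depth was estimated from the steps of whole reads in low FPKM (fits to separate sets of genes differed by at most 0.28%), and reads per gene from it, which cover counting error only. Positions are from GENCODE vM21, in which 472 of the 479 genes were placed, 10 of them by an older symbol. Python 3.11.15 with numpy 2.4.6, pandas 2.3.3 and matplotlib 3.10.9 was used.

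The genes, lists and alternatives were chosen with earlier results of these data known. Named genes are the 10 members, for each the 2 table genes with the most pairs of mutants ordered alike, Axl, and the 5 table genes nearest each end of the stretch among those from Inafm2 to 10 Mb past Mertk, and others are said to be picked later. 1 gene that the rule names is not reported here. Alternatives were other constants in the logarithm (1 and 0.1), only genes with a mean of 1 FPKM or more, a fit without sex, limma with a trend, males or females by themselves, leaving out each mouse, and a WT range of mean ± 3 SD.

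Lists of related genes were compared with the table. Besides the 10 genes it holds Axl and Tyro3 of 11 genes of the Ltk, Alk and TAM families, and Sis of 5 alpha-glucosidases. Under the listed symbols it holds no further member of the lists for creatine, sulfide metabolism, group IV phospholipases, inositol phosphate kinases or nucleoside transporters. Other names of a gene were not searched, and Gm14085, the close relative of Slc28a2, is in the table under that name. Of marker lists, it holds 0 of 5 for B cells, 0 of 5 for dendritic cells, 0 of 6 for erythroid cells, 0 of 4 for neutrophils, 0 of 5 for muscle or kidney and 1 of 5, Pdgfra, for fibroblasts and endothelium.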

Additional observations from a re-analysis of the deposited data

Results flagged for a closer look

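Of 20 groups of 6 mice, 1 held a value far from the rest by Dixon's criterion, Ltk in WT_212 at 0.230 FPKM, whose gap to the next mouse was 0.627 of the WT range against a critical value of 0.625. Chance gives about 1 such group in 20. The value corresponds to about 17 reads, and the mutants lie at 1.66 FPKM and above.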

How the results depend on the processing

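With all mice, 5 of the 10 genes passed both thresholds between genotypes. With log2(FPKM + 1) 8 passed and with log2(FPKM + 0.1) all 10, against 108 and 385 genes of the table. With males only 0 passed, against 24 genes of the table, and with females only 6, against 26 of the table (29 with all mice). In the males-only limma fit, 9 of the 10 passed the threshold on the adjusted p-value by itself. In that fit 274 genes of the table had an unadjusted p-value under 0.05, a different criterion, so these counts are not compared. Leaving out each mouse gave 3 to 7, against 23 to 38 genes of the table. The 3 without AMDKO_231 were Inafm2, Ltk and Sqrdl, against 29 genes of the table. Between sexes the count was 0 to 0, and for genotype by sex, called on the adjusted p-value alone, it was 0 to 6. The 6 were found without AMDKO_220, of 7 in the table, and 3 of them also had an estimate beyond 0.5. The mutant values within the WT range, 2 of 60, became 7 with a range of WT mean ± 3 SD and 1 to 2 without single WT mice, 1 without WT_211. Of 189 log2 fold changes of single genes under alternatives, 164 kept their side of the thresholds, 16 moved past them, 9 lost them and 0 changed sign. In alternatives added after seeing the data, AMDKO_219 and AMDKO_231 stood apart for 7 of the 10 genes also on the log2(FPKM + 0.1) scale, and were farthest for 10 of the 10 without any single WT mouse. No paired analysis was possible because the genotypes share no mouse numbers. The number of mice, 3 per genotype and sex, limits all comparisons, and genes under 1 FPKM such as Itpka rest on few reads.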
